A study of Homo sapiens with 6 samples.

Results

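The genes described here encode the enzymes of de novo pyrimidine synthesis and of thymidylate synthesis. They are CAD, DHODH and UMPS for the route to UMP, CTPS1, CTPS2, CMPK1 and NME1 for CTP and the phosphorylation of nucleotides, and TYMS, DTYMK and DUT for thymidylate. These 10 genes were chosen by symbol among the 43424 symbols of the count tables, with earlier results of these data known. All 10 passed the filter on low counts that left 12844 genes for testing. The libraries come from HL-60, a human acute myeloid leukaemia line labelled as wild type, kept for 6 months with either DMSO or an extract of Corydalis incisa (CIP). The CIP dose was raised from 2 to 20 µg/ml, and cells kept through this regimen are called CIP-resistant in the series. There were 3 libraries with the CIP label and 3 with the DMSO label, made with a QuantSeq kit, which reads a stretch near the polyadenylated 3' end of each transcript. Whether replicates of a label came from separate cultures is not stated, and the p-values therefore speak only of the spread among these 6 libraries, which may be technical. If all libraries of a label come from 1 selected culture, the treatment and any other difference between the cultures cannot be told apart.

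Cells make pyrimidine nucleotides anew from glutamine, bicarbonate and aspartate, or salvage them from nucleosides. CAD catalyses the opening steps, DHODH oxidises dihydroorotate at the inner mitochondrial membrane, and UMPS completes UMP, from which UTP, CTP and the deoxynucleotides follow. DUT turns dUTP into dUMP, TYMS methylates dUMP to dTMP with a folate cofactor, and DTYMK phosphorylates dTMP on the way to dTTP. Dividing leukaemia cells depend on this supply, inhibitors of DHODH are known to drive myeloid leukaemia cells to differentiate, and TYMS is the target of fluoropyrimidine drugs.

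Short promoter stretches are shown for the 4 members whose promoter held letters that were searched for. All 10 members matched the RefSeq promoter table (GRCh38.p14), with 15 windows of 300 bases, each from 250 bases before a transcript start to 50 bases after it. Both strands were searched for the E-box CACGTG, which MYC and related factors are known to bind, and for the E2F-like letters TTTCGCGC and TTTGGCGC and also TTTCCCGC. The E-box stood in 7.26% of all 35116 windows and the E2F-like letters in 2.74%. Matches are in capitals below, written 5′ to 3′ on the gene's strand, and positions count the start site as 0.
DUT, chr15:48332152-48332181, plus strand: ctgGCGGGAAAtttcggtTTTGGCGCgctc
TYMS, chr18:657603-657632, plus strand: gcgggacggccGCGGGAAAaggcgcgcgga
DHODH, chr16:72008573-72008602, plus strand: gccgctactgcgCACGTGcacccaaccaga
NME1, chr17:51153579-51153608, plus strand: caagtgctgcgaacCACGTGggtcccgggc
In DUT, TTTCCCGC read on the opposite strand lay at -42 to -35 and TTTGGCGC at -27 to -20 from the start at 48332197, the farthest downstream of its 4 annotated starts. TYMS held TTTCCCGC on the opposite strand at -39 to -32. The E-box lay at -159 to -154 in DHODH and at 34 to 39, past the start, in NME1. DUT and TYMS, which share the E2F-like letters, went in opposite directions between the labels. DHODH and NME1 both went up, as did most members without an E-box, 8 of all 10 members being higher with the CIP label. Whether these letters play a part in the members' values was not tested. The windows of the other 6 members, CAD among them, held none of these letters, which says nothing about the factors themselves. Bases outside the windows, such as those more than 50 past a start, were not searched.

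Total counts ran from 8143657 to 10868396 per library, and the members together took 0.152% to 0.179% of a library's counts. The libraries were checked against genes known to mark HL-60. MPO, myeloperoxidase, had 77887 to 84917 counts per library with the CIP label but 9 to 15 counts with the DMSO label, which goes against the usual description of HL-60 for the DMSO label. ELANE, AZU1, PRTN3, CTSG, CD33 and MYB were read under both labels, but each differed between them in the test described below. PRTN3 and CD33 were higher with the CIP label, and ELANE, AZU1, CTSG and MYB were lower. CTSG had 863 to 953 counts per library with the CIP label and 5873 to 7059 with the DMSO label. Groups are therefore named by label, and a gene is said to rise or fall by its CIP-labelled level relative to the DMSO-labelled one.

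Among the members 8 rose, 1 fell and 1 was not called between the labels. CAD, at the entry of the pathway, stood at the same level within the spread. Each member after it on the way to UTP and CTP rose 1.42-fold to 1.88-fold. DTYMK rose 3.14-fold and DUT fell to 0.662 of its DMSO level. Differences were tested with edgeR's quasi-likelihood test over all 12844 genes, and a gene was called at a Benjamini-Hochberg adjusted p under 0.05. Levels are in CPM, that is, read counts per library total after TMM scaling, which balances libraries of unlike make-up. Means carry the SD of 3 libraries. With the same test 73.1% of all tested genes were called, 34.9% higher and 38.2% lower, so a call by itself does not set a member apart. The median log2 fold change was 0.82 over the members and -0.03 over all tested genes. The libraries of the groups did not overlap for 9 of 10 members, against 75.4% of all tested genes.

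**Figure D1:**
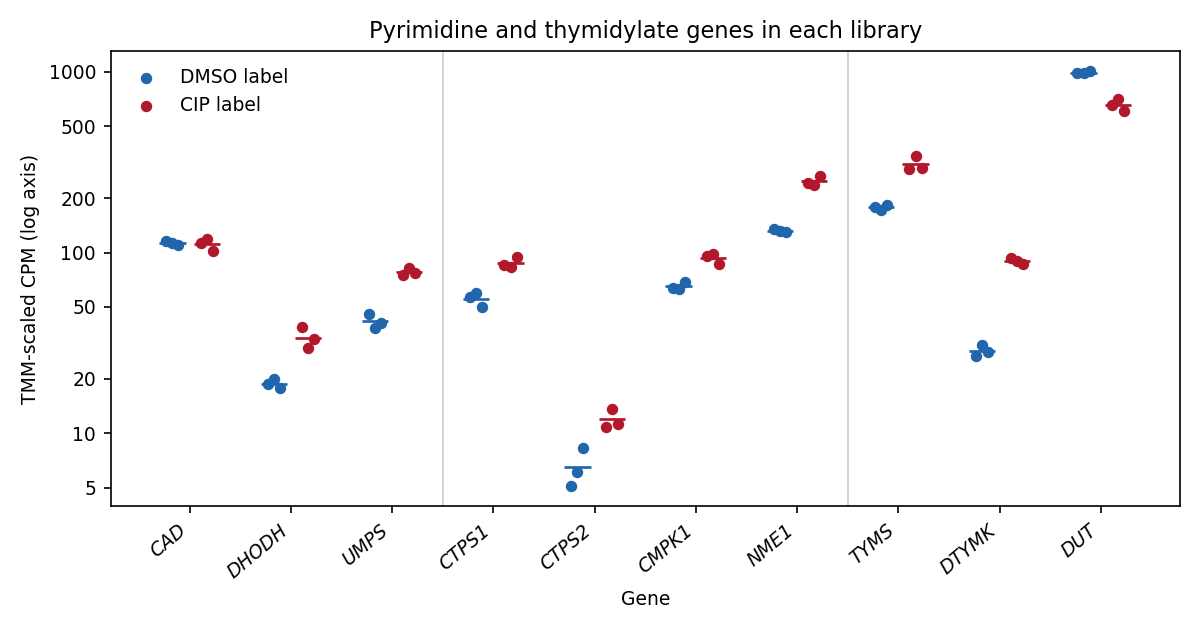
TMM-scaled CPM (log axis) of each gene in each library, with DMSO-labelled libraries in blue and CIP-labelled ones in red, and a bar at the group mean. The red points lie above the blue ones for 8 genes, below them for DUT, and among them for CAD.

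CAD (ENSG00000084774, chromosome 2, 27217390 to 27243943, plus strand, GRCh38) encodes the trifunctional enzyme of carbamoyl phosphate synthetase, aspartate transcarbamylase and dihydroorotase. It stood at 113, 119 and 101.8 CPM in CIP replicates 1 to 3 and at 115.6, 112.6 and 109.5 CPM in DMSO replicates 1 to 3. The DMSO values lie inside the range of the CIP values. The log2 fold change was -0.02 ± 0.08 (SE, edgeR adjusted p = 0.84), and its 95% interval ran from 0.886-fold to 1.10-fold. Scaled by library totals alone, CAD was called lower (log2 fold change -0.25, adjusted p = 0.0043). That scaling moved the median of all tested genes from -0.03 to -0.26 and the share of lower genes among the called ones from 52.3% to 63.2%.

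DHODH (ENSG00000102967, chromosome 16, 72008588 to 72027664, plus strand) is the only enzyme of the route inside the mitochondrion. It stood at 38.6, 29.7 and 33.1 CPM with the CIP label and at 18.8, 19.9 and 17.7 CPM with the DMSO label. Each CIP-labelled library was above each DMSO-labelled one, with the widest spread among the CIP libraries. The log2 fold change was 0.84 ± 0.14 (SE, edgeR adjusted p = 1.5e-06). UMPS (ENSG00000114491, chromosome 3, 124730366 to 124749273, plus strand) joins orotate to phosphoribosyl pyrophosphate (PRPP) and decarboxylates the product to UMP. It stood at 75.1, 82.0 and 77.5 CPM with the CIP label and at 45.9, 38.1 and 40.8 CPM with the DMSO label, again without overlap. Its log2 fold change was 0.91 ± 0.10 (SE, edgeR adjusted p = 2.3e-10), which differed from that of DHODH by less than either SE. The pathway's entry and its later steps thus stood differently between the labels: the ratio of UMPS to CAD counts within a library was 0.705 ± 0.051 with the CIP label and 0.369 ± 0.030 with the DMSO label (SD, n = 3).

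The 4 members that carry UMP on to CTP and to the triphosphates all rose. CMPK1 (ENSG00000162368, chromosome 1, 47333797 to 47378839, plus strand) phosphorylates UMP and CMP. It stood at 95.3, 97.7 and 86.6 CPM with the CIP label and at 63.9, 63.2 and 69.0 CPM with the DMSO label, and it had the smallest rise of the members that rose (log2 fold change 0.51 ± 0.08 SE, edgeR adjusted p = 2.0e-06). NME1 (ENSG00000239672, chromosome 17, 51153536 to 51162428, plus strand) is a nucleoside diphosphate kinase that makes triphosphates. It stood at 242.4, 237.7 and 267.0 CPM with the CIP label against 135.3, 131.0 and 130.3 CPM, with tight DMSO values and no overlap. Its log2 fold change was 0.91 ± 0.07 (SE, edgeR adjusted p = 6.3e-14).

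CTPS1 and CTPS2 encode the paired isoenzymes that aminate UTP to CTP, of which CTPS1 is known for its part in the growth of lymphocytes. CTPS1 (ENSG00000171793, chromosome 1, 40979335 to 41012565, plus strand) stood at 84.9, 83.6 and 94.6 CPM with the CIP label and at 56.6, 59.9 and 50.1 CPM with the DMSO label. CTPS2 (ENSG00000047230, chromosome X, 16588003 to 16712936, minus strand) stood at 10.9, 13.7 and 11.3 CPM against 5.14, 6.12 and 8.24 CPM. Neither gene's libraries overlapped between the labels, although CTPS2 rested on 52 to 134 counts per library and varied most within the DMSO group (24.4% of its mean). The log2 fold changes were 0.66 ± 0.09 for CTPS1 (SE, edgeR adjusted p = 7.1e-08) and 0.88 ± 0.23 for CTPS2 (adjusted p = 9.4e-04). The balance of the isoenzymes did not separate the labels: CTPS1 had 7.82, 6.10 and 8.38 counts for each count of CTPS2 with the CIP label and 11.0, 9.78 and 6.08 with the DMSO label.

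**Figure D2:**
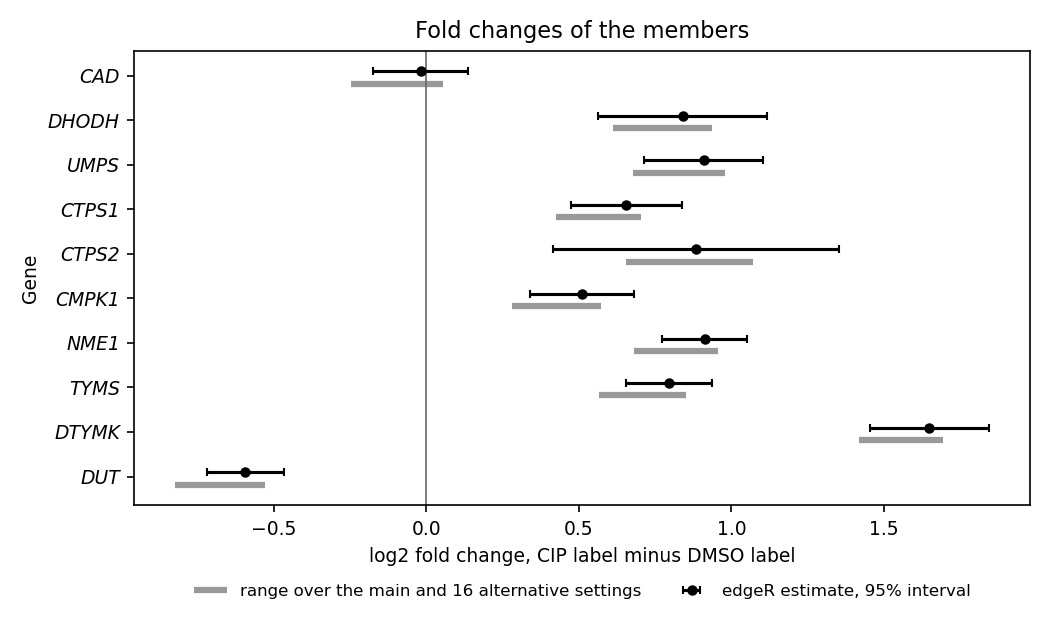
Log2 fold change of each gene, CIP label minus DMSO label, with its 95% interval from edgeR (black) and the range over the main and 16 alternative settings (grey). DTYMK lies farthest to the right at 1.65, DUT lies left of 0 at -0.59, and the CAD interval spans 0.

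The 3 thymidylate genes moved apart. DTYMK (ENSG00000168393, chromosome 2, 241675742 to 241686991, minus strand), the kinase of dTMP, stood at 92.8, 89.9 and 86.6 CPM with the CIP label and at 26.9, 30.6 and 28.2 CPM with the DMSO label. This was the largest rise among the members, at 1.65 ± 0.10 on the log2 scale (SE, edgeR adjusted p = 5.9e-17), the 93.1 percentile of the fold changes of all tested genes. TYMS (ENSG00000176890, chromosome 18, 657604 to 673578, plus strand), thymidylate synthase, stood at 291.2, 343.2 and 294.5 CPM against 179.4, 172.6 and 182.9 CPM, without overlap. Its log2 fold change was 0.80 ± 0.07 (SE, edgeR adjusted p = 3.1e-12).

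DUT (ENSG00000128951, chromosome 15, 48331011 to 48343373, plus strand) encodes the dUTPase that supplies dUMP to TYMS and keeps uracil out of DNA, in a nuclear and a mitochondrial form. It stood at 653.3, 710.0 and 610.1 CPM with the CIP label and at 989.6, 981.0 and 1005 CPM with the DMSO label. All DMSO-labelled libraries were above all CIP-labelled ones, the reverse of the other members that were called. The log2 fold change was -0.59 ± 0.06 (SE, edgeR adjusted p = 2.4e-10). Reads near the 3' end do not tell the nuclear from the mitochondrial form, which differ at the 5′ end, so the value is for the gene as a whole.

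Neighbouring annotation bears on some of these counts, since no source used here gives the strand setting of the counting. In GENCODE release 29, ENOSF1 runs opposite to TYMS, and its exons cover all 300 of the last 300 bases of TYMS. ENOSF1, an enolase family gene, rose as well, from 74.8 ± 6.99 to 151.2 ± 2.65 CPM (log2 fold change 1.01, edgeR adjusted p = 1.2e-13). Without the strand setting it is not known whether reads of the pair were told apart. NME1 lies in the read-through gene NME1-NME2, which had 0 counts in every library and shares 0 of the last 300 exonic bases of NME1. The last exon of NME2 is shared with that read-through gene (258 of 261 bases), and NME2 had 11, 73 and 13 counts with the CIP label and 4, 2 and 5 with the DMSO label, so its value is uncertain. DUT shares 533 exonic bases at its other end with an antisense RNA of the annotation. The genes inside CTPS2 and UMPS (S100G, MIR548AM and MIR544B) had 0 counts in every library, and CAD, DHODH, CTPS1, CMPK1 and DTYMK overlapped no annotated gene in either annotation.

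In 3' libraries a transcript gives counts by its end and not by its length, so length does not enter the CPM levels set side by side here. Other differences in how genes are read, such as their number of transcript ends, were not corrected for. The order below is therefore an order of read counts. In both groups DUT was the highest member, followed by TYMS and NME1, and CTPS2 was the lowest, after DHODH. How many reads TYMS lost to, or gained from, its overlap with ENOSF1 is not known without the strand setting. The order of TYMS and NME1 is therefore uncertain. CAD and CMPK1 came next after NME1 in both groups. With the CIP label CMPK1 at 93.2 ± 5.81, DTYMK at 89.8 ± 3.12 and CTPS1 at 87.7 ± 6.01 CPM did not differ beyond their spread. With the DMSO label DTYMK stood at 28.6 ± 1.90 CPM, below UMPS at 41.6 ± 3.99 and CTPS1 at 55.5 ± 4.99 CPM.

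Ratios between members within a library do not depend on how libraries are scaled, and they were chosen after the values had been seen. Those with TYMS carry the same limit from ENOSF1. DUT took 36.7% to 39.3% of the members' counts per library with the CIP label and 60.4% to 61.2% with the DMSO label. There were 2.24, 2.07 and 2.07 counts of DUT for each count of TYMS with the CIP label, and 5.52, 5.68 and 5.50 with the DMSO label. DTYMK had 0.319, 0.262 and 0.294 counts per count of TYMS with the CIP label, against 0.150, 0.177 and 0.154. The ratio of TYMS to CAD was 2.78 ± 0.18 with the CIP label and 1.58 ± 0.07 with the DMSO label, and that of DHODH to CAD was 0.305 ± 0.049 and 0.167 ± 0.008 (SD, n = 3). The groups did not overlap in any of these ratios, only in that of CTPS1 to CTPS2.

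**Figure D3:**
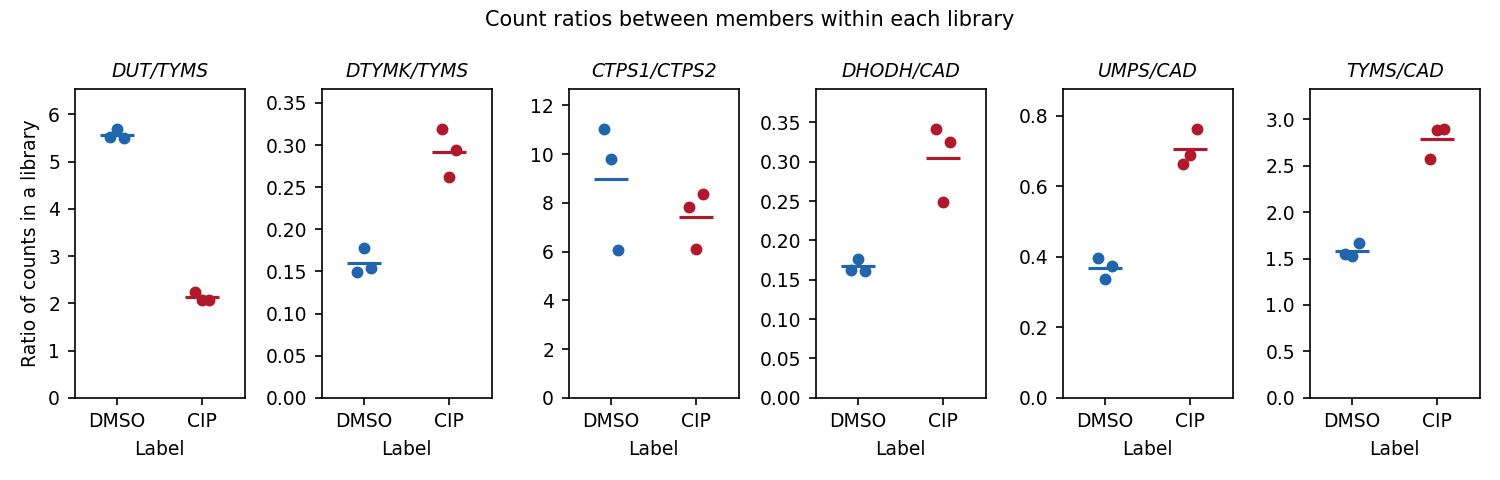
Ratio of the counts of 2 members within each library (points) with the group mean (bar), each panel on its own axis from 0. DUT per TYMS is 5.50 to 5.68 with the DMSO label and 2.07 to 2.24 with the CIP label, while CTPS1 per CTPS2 overlaps.

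Members were also read beside the tested genes that start within 1 Mb of them in the RefSeq table. Around DTYMK 13 of 18 neighbours rose, with a median log2 fold change of 1.19, and around DUT 7 of 9 fell, with a median of -1.09. Over all tested genes 34.9% were higher and 38.2% lower. Around TYMS, on the short arm of chromosome 18, USP14, THOC1, ENOSF1 and YES1 rose by 1.01 to 1.33 on the log2 scale and the antisense RNA TYMSOS had a log2 fold change of -0.86. CTPS1 and CMPK1 rose where the medians of their neighbours were -0.34 and -0.97, and CTPS2 rose where 6 of 8 neighbours fell. For DHODH, UMPS and NME1 the neighbours' medians lay between 0.19 and 0.25, and for CAD it was -0.37. Whether position on the chromosome plays a part in the members' values was not tested.

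**Figure D4:**
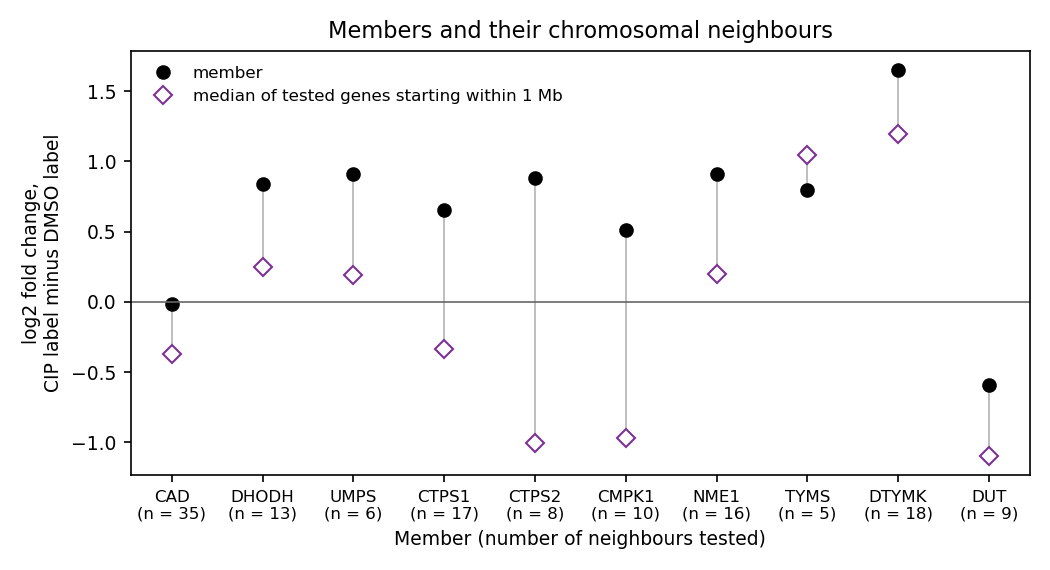
Log2 fold change of each member (black) and median over the tested genes that start within 1 Mb of it (open diamonds), with the number of those genes under each name. Member and median lie on opposite sides of 0 for CTPS1, CTPS2 and CMPK1 and on the same side for the other members, among them CAD, which was not called.

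Genes around the pathway were read from 9 lists drawn up by function, with 89 genes in all, and the same test. The shares to set beside each list's counts are 34.9% higher and 38.2% lower over all tested genes. Of 11 genes of pyrimidine salvage and nucleoside uptake 5 rose, 4 fell and 2 were not called. SLC29A2, an equilibrative nucleoside transporter, rose from 1.42 ± 0.48 to 61.9 ± 3.66 CPM. CDA, which deaminates cytidine and the drug cytarabine, fell from 67.7 ± 2.06 to 0.279 ± 0.205 CPM, and UPP1, uridine phosphorylase, fell from 5.90 ± 0.98 to 0.314 ± 0.090 CPM. With the CIP label these rest on 1 to 5 counts per library for CDA and 2 to 4 for UPP1. TK2, the mitochondrial thymidine kinase, fell by 0.85 on the log2 scale, while TK1, the cytosolic one, stood at 24.0 ± 3.1 against 23.9 ± 5.7 CPM and was not called. In pyrimidine breakdown 2 of 7 tested genes rose and 4 fell. DPYD, the first enzyme of uracil breakdown, had 2 counts in all with the CIP label and 257 with the DMSO label, a ratio of 124 at scaled depth in favour of the DMSO label (exact 95% interval 33.9 to 1028). UPB1, the last enzyme of that route, fell from 6.61 ± 0.76 to 0.168 ± 0.209 CPM, from 58, 73 and 63 counts with the DMSO label to 0, 1 and 4. Of the 4 nucleotidases of the list, NT5C and NT5C3A were higher (log2 fold changes 1.29 and 1.16), NT5M was lower (-1.26) and NT5E was not called.

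Of 8 other tested nucleoside monophosphate and diphosphate kinases 4 rose, 1 fell and 3 were not called. NME4, a mitochondrial relative of NME1, rose from 34.9 ± 2.24 to 115.8 ± 5.47 CPM and NME3 from 2.27 ± 0.75 to 20.0 ± 2.24 CPM. Among 6 genes of ribonucleotide reduction and the dNTP pool 3 rose and 2 fell. RRM2, the regulated subunit of ribonucleotide reductase, fell from 202.7 ± 9.5 to 117.3 ± 1.94 CPM. DCTPP1, a dCTP pyrophosphatase, rose from 73.7 ± 8.4 to 143.5 ± 2.7 CPM and SAMHD1, which degrades dNTPs, rose from 4.30 ± 1.75 to 13.2 ± 1.73 CPM. DCTD, which makes dUMP from dCMP beside the route through DUT, rose by 0.60 on the log2 scale.

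In the folate cycle that feeds TYMS 4 of 10 genes were higher, 4 lower and 2 not called, shares near the 34.9% and 38.2% of all tested genes. Scaled by library totals alone, 3 were higher and 6 lower. The genes of folate uptake and polyglutamates rose: SLC19A1, the reduced folate carrier, from 45.7 ± 1.27 to 76.6 ± 7.36 CPM and FPGS, which adds glutamates, from 38.0 ± 0.61 to 71.0 ± 3.21 CPM. GGH, which removes them, rose too, with 417 counts in all against 3, a ratio of 144 at scaled depth (exact 95% interval 49.0 to 702). MTHFD1, an enzyme of folate interconversion, fell from 123.6 ± 11.8 to 72.3 ± 3.30 CPM. Of 9 genes that supply glutamine, aspartate and PRPP 2 rose and 4 fell. The glutamine carrier SLC1A5 fell from 248.0 ± 17.2 to 141.0 ± 6.3 CPM and the aspartate transaminase GOT1 rose by 0.49 on the log2 scale.

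Of 11 regulators of the pathway 6 rose, 2 fell and 3 were not called. MYC, a transcription factor of growth genes that is known to act on CAD, rose from 41.7 ± 3.89 to 279.8 ± 52.3 CPM, while CAD itself was not called. E2F3, a transcription factor of S phase genes, rose from 60.1 ± 9.26 to 134.4 ± 12.0 CPM. E2F1 rose by 0.26 on the log2 scale. The 2 regulators that fell were E2F2 and MAPK3, with log2 fold changes of -0.44 and -0.74. RPTOR, a subunit of the growth kinase complex mTORC1, rose by 1.00 on the log2 scale. Scaled by library totals alone, 4 regulators were higher and 5 lower. Of 17 S phase and replication genes 7 rose and 6 fell (9 fell with library totals alone, median log2 fold change -0.02), with MCM3 from 589.1 ± 44.9 to 292.6 ± 17.1 CPM and CCNE1, cyclin E1, from 8.40 ± 2.29 to 24.0 ± 2.75 CPM. Of 8 mitosis genes 0 rose and 6 fell (median -0.63), among them CCNB1 and BUB1 with log2 fold changes of -1.19 and -1.18. Over all tested genes 34.9% were higher and 38.2% lower, the shares to set beside the counts of these lists. The thymidylate genes did not share a direction beside these lists: TYMS and DTYMK rose, while DUT fell. The part of cell cycle state in the members' values was not tested.

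**Figure D5:**
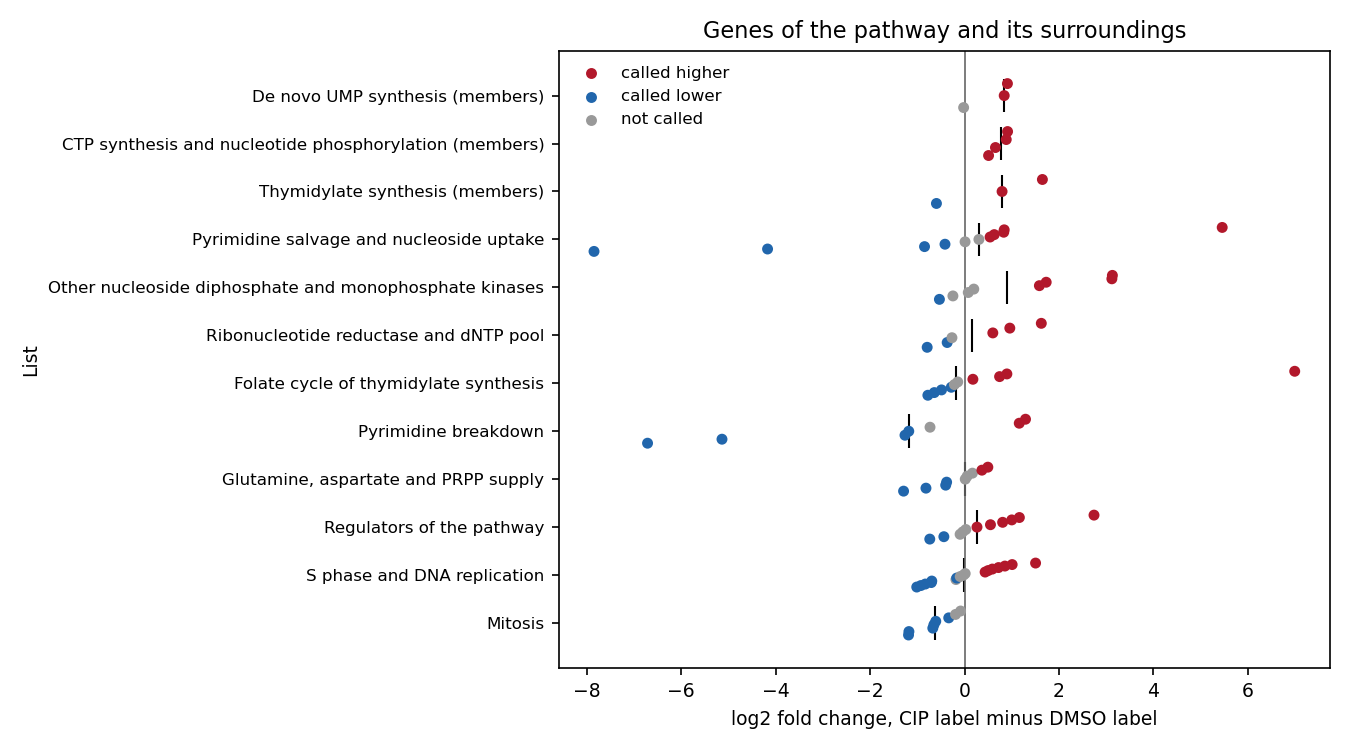
Log2 fold change (CIP label minus DMSO label) of each tested gene by list, red where called higher, blue where called lower and grey where not called, with a black bar at the list's median. The member lists lie mostly right of 0, mitosis lies left of it, and salvage, folate and breakdown hold genes on both sides.

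Markers of other cell types were summed beside these results. Of the 5 monocyte markers only LYZ was tested, CD163 and FCGR3A were at 0 counts, and the list's sum was 15.4 to 22.5 CPM with the CIP label and 221.7 to 240.8 CPM with the DMSO label. The 7 lymphoid markers summed to 3.73 to 4.40 CPM against 80.1 to 99.2 CPM, most of it NKG7, with MS4A1 at 0. The 5 erythroid markers stood at 0 to 0.201 CPM in each library. The 8 epithelial and fibroblast markers summed to 58.7 to 144.3 CPM against 141.4 to 258.5 CPM, mostly FN1, with CIP replicate 3 and DMSO replicate 1 the highest of their groups, and none of the 7 tested was called by edgeR, with 1 of them (KRT18) at an unadjusted p under 0.05. In bulk libraries a change in the share of cells and a change in RNA per cell cannot be told apart, and the part of these markers in the members' values was not tested.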

How the data were processed

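Each file deposited by the authors lists 1 library's raw read counts by gene symbol; the values are whole and their totals differ. STAR, HTSeq, fastp and bcl2fastq 2.20.0.422 and the build GRCh38 are named, without settings, per the submitters' processing notes. Group and replicate number come from the sample titles. Counts were filtered with filterByExpr, scaled by TMM and tested with edgeR 4.0.16 in R 4.3.3 (quasi-likelihood, robust, group alone, 2-sided). Adjustment was by Benjamini-Hochberg over all 12844 genes. The same steps were tested on simulated data. CPM divides counts by TMM-scaled library totals, where 3 counts are 0.287 to 0.346 CPM. An SE is the log2 fold change divided by the square root of F. Exact permutation of 3 against 3 libraries cannot go below p = 0.10, so no such test was run. Intervals on counts cover counting error only. Replicates of a group differed beyond sampling noise, with 3.85 to 7.66 for the chi-square per gene, so none was taken as a duplicate. The members and lists were chosen with earlier results of these data known. Named list genes are at most 4 called genes per list with the largest change and at least 5 CPM. Some genes that the rule names are not reported here. Outside that rule, TK1, NT5C3A, NT5E, NME2, E2F1, E2F2, MAPK3 and the marker genes were named after their values were seen. Gene models are from GENCODE release 29 (GRCh38). DESeq2 1.42.0 and limma 3.58.1 were used as alternatives, with other scalings, filters and thinning, each library left out in turn and the replicate number as a block.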

Additional observations from a re-analysis of the deposited data

How the results depend on the processing

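Across 16 alternative settings the 9 called members kept their direction and their call in each, with DTYMK between 1.42 and 1.69 and DUT between -0.82 and -0.53 on the log2 scale. CAD was not called in 15 of them. Its log2 fold change was 0.00016 with no filter on low counts and 0.0537 without CIP replicate 3, against -0.02, and -0.25 with library totals alone, where it was called, so that 2 members were lower in place of 1. With library totals alone, 2 of the other kinases were lower in place of 1, 1 supply gene was higher in place of 2, and the regulators went from 6 higher and 2 lower to 4 and 5. The folate genes went from 4 higher and 4 lower to 3 and 6, the lower S phase genes from 6 to 9 and the lower mitosis genes from 6 to 8 of 8. The higher folate genes numbered 3 in 7 of the 16 settings. When 1 library was left out in turn, CAD ran from -0.0598 to 0.0537 and the lower regulators numbered 1 (without DMSO replicate 2) to 2. Same-numbered libraries did not deviate together (correlations over genes of -0.03 to -0.01), and neither did differently numbered ones (-0.01 to 0.03). These values cannot show whether same-numbered libraries were handled together. With the replicate block 9061 genes were called in place of 9394, and 8 members were higher and 1 lower as before. Depth limits NME2, DPYD, GGH, UPB1, CDA and UPP1, which rest on few counts in 1 or both groups, and to a lesser degree CTPS2.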
